A study of Mus musculus with 4 samples.

Results

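Deep-layer cortical neuron genes were described in the medial prefrontal cortex (mPFC) of mice with depression-like behavior. They were 9 genes chosen by symbol: Fezf2, Bcl11b, Etv1, Tbr1, Tle4, Foxp2, Ntsr1, Crym and Syt6. All 9 were found among the 17778 genes of the expression table, and all 9 had at least 0.5 RPKM in both groups. RPKM is the number of reads scaled to gene length in kilobases and to sequencing depth. The control group (2 libraries) came from C57BL/6 mice (C57BL/6J in the methods of the study) that lived without the stressors. The CUMS group (2 libraries) came from mice of the same strain exposed to chronic unpredictable mild stress (CUMS), a schedule of social isolation and changing mild stressors. According to the methods of the study, the mice were male and juvenile at the start, and of the stressed mice only those with depression-like values in every behavior test were used, so that stress and selection by behavior cannot be told apart. No transgene or drug treatment is described for either group. Mice of both groups were anesthetized with isoflurane before the mPFC of both sides was taken. The analysed table gives 1 mean per group. The error between libraries is therefore unknown for every difference below, and no test was possible. Whether each library came from 1 mouse or from pooled mice is not given in the sources used here.

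The neocortex is built of layers, and the deep layers 5 and 6 hold the neurons that send the output of the cortex to distant targets. Layer 5 neurons project to the brainstem, spinal cord and striatum, and layer 6 corticothalamic neurons project to the thalamus. During development, transcription factors that restrain each other assign a neuron to a layer: Fezf2 and Bcl11b (also called Ctip2) specify subcerebral neurons of layer 5, and Tbr1 specifies corticothalamic neurons of layer 6. Many of these genes stay on in the adult cortex and serve as layer markers. Bcl11b, Foxp2, Crym and Etv1 are not exclusive to cortex and are also expressed by neurons of the striatum, which lies next to the mPFC.

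Depth was estimated from the steps between low values, as 7385524 fragments for a library of control mice and 7440476 for one of CUMS mice. The 95% intervals below are exact intervals from these estimated fragments and cover counting error only. Slc17a7, the vesicular glutamate transporter of cortical excitatory neurons, was well expressed, at 635 RPKM in control against 791 RPKM in CUMS. Genes of the striatum and olfactory bulb were found as well, with summed control levels of 569.5 and 26.1 RPKM. Whether the sample held cortex alone was not tested. Of 4 further lists of deep-layer markers, 21 of 21 genes were at 0.5 RPKM or more in either group. So were 14257 of all 17778 genes, so that this count says little about which cells were present.

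Deep-layer genes differed in both directions. Of the 9 genes, 4 were higher in CUMS (Ntsr1, Tbr1, Fezf2 and Crym) and 5 were lower (Etv1, Bcl11b, Tle4, Foxp2 and Syt6). Among all 14257 genes at 0.5 RPKM or more in either group, 46.6% were higher in CUMS. The median log2 ratio of CUMS over control was -0.03 for the 9 genes and -0.02 for all genes. Ntsr1 alone differed by more than 1.5-fold, against 7.20% of all genes in either direction and 2.78% of all genes with a ratio this much higher. The list of changed mRNAs in the study required the same fold and a minimum probability from its own comparison. None of the 9 genes, Ntsr1 included, is on that list. The counting interval of the log2 ratio lay off 0 in 5 of 9 genes (Ntsr1, Tbr1, Fezf2, Crym and Syt6), against 29.3% of all genes. The share for all genes is not matched for level, and well expressed genes have narrow intervals. In tissue RNA, fewer cells of a type and less RNA per cell cannot be told apart.

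**Figure D1:**
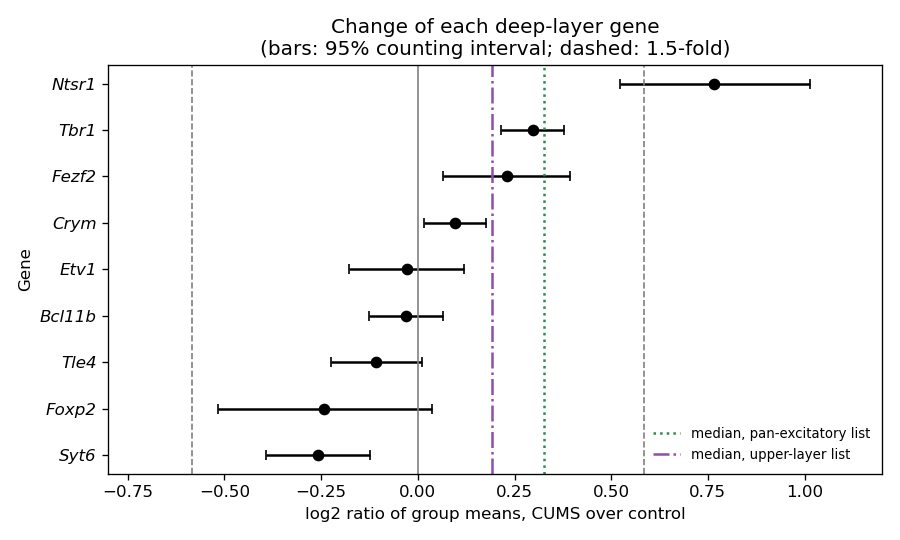
The log2 ratio of the group means (CUMS over control, horizontal axis) is shown for each of the 9 deep-layer genes, with 95% counting intervals as bars, 1.5-fold limits as dashed lines, and the medians of the upper-layer and pan-excitatory lists as vertical lines. Ntsr1 lies beyond the 1.5-fold line at 0.77, and the other genes lie between -0.26 and 0.30.

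The levels of the 9 genes spanned a wide range per kilobase. Crym was the highest, at 132.5 RPKM in control against 141.6 RPKM in CUMS, above 96.3% of genes in control. Tbr1 came next in both groups, and Foxp2 was the lowest in both. Etv1 and Ntsr1 stood at places 7 and 8 in both groups, and the 4 genes above them (Tle4, Syt6, Fezf2 and Bcl11b) had similar levels and changed places. In control the order was Tle4, Syt6, Fezf2, Bcl11b, Etv1 and Ntsr1, and the intervals of neighbours overlapped from Tle4 to Bcl11b. In CUMS the order was Fezf2, Tle4, Bcl11b, Syt6, Etv1 and Ntsr1, and the intervals of neighbours overlapped from Fezf2 to Etv1. Fezf2 thus stood at place 5 in control and place 3 in CUMS, and Syt6 at place 4 and place 6. Levels between genes depend on the gene models of the authors. Their length for Etv1 was 4004 bases and that for Foxp2 was 6617 bases, whereas the exons of all their GENCODE M21 transcripts cover 13296 and 16346 bases.

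**Figure D2:**
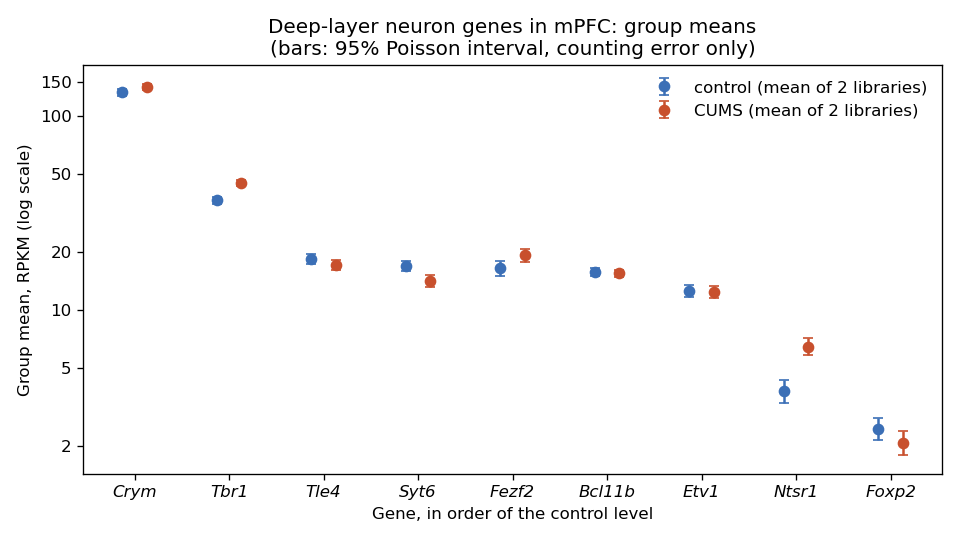
Group means in RPKM (vertical axis, log scale) of the 9 deep-layer genes in control and CUMS, in order of the control level, with 95% Poisson intervals for counting error as bars. Crym and Tbr1 stand above the others in both groups, Ntsr1 and Foxp2 below them, and the intervals of control and CUMS do not overlap for Ntsr1, Tbr1 and Syt6.

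Fezf2, Bcl11b and Etv1 are transcription factors of layer 5 neurons. Fezf2 (gene 54713, GRCm38 chromosome 14, 12338992 to 12346803) encodes a zinc finger factor that directs neurons to subcerebral targets. Its mean was 16.4 RPKM in control (558 fragments) against 19.2 RPKM in CUMS (659 fragments), a log2 ratio of 0.23 (0.06 to 0.39). Bcl11b (gene 58208, chromosome 12, 107910403 to 108004145), a zinc finger factor that acts downstream of Fezf2 in the outgrowth of corticospinal axons, was 15.8 RPKM in control against 15.4 RPKM in CUMS. Its log2 ratio of -0.03 had a narrow interval (-0.13 to 0.06), since 1816 and 1791 fragments stood behind it. Fezf2 lay below Tle4 in control (0.893 times) and above it in CUMS (1.13 times). Etv1 (gene 14009, chromosome 12, 38780082 to 38870483), an ETS family factor and a classic marker of layer 5 known as Er81, was 12.6 RPKM in control against 12.4 RPKM in CUMS, a log2 ratio of -0.03 (-0.18 to 0.12). For Bcl11b and Etv1 no difference was detectable at this depth.

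Tbr1, Tle4 and Foxp2 are regulators of layer 6 neurons. Tbr1 (gene 21375, chromosome 2, 61802863 to 61814114) encodes a T-box factor that gives corticothalamic neurons their identity and represses the layer 5 program. It was 36.8 RPKM in control (2160 fragments) against 45.2 RPKM in CUMS (2672 fragments). The log2 ratio was 0.30 (0.21 to 0.38), and 8.63% of all genes at 0.5 RPKM or more had a higher ratio. Tle4 (gene 21888, chromosome 19, 14448072 to 14598183), a corepressor of the Groucho family that marks corticothalamic neurons and binds Fezf2, was 18.4 RPKM in control against 17.0 RPKM in CUMS, a log2 ratio of -0.11 (-0.22 to 0.01). Foxp2 (gene 114142, chromosome 6, 14901349 to 15441977), a forkhead factor of layer 6, was the least expressed of the 9 genes. Its mean was 2.44 RPKM in control (238 fragments) against 2.06 RPKM in CUMS (203 fragments), and its log2 ratio of -0.24 had a wide interval (-0.52 to 0.04). For Tle4 and Foxp2 no difference was detectable at the estimated depth, whereas the interval of Tbr1 lay above 0. This depends on the estimate: at 2 times this depth the intervals of Tle4 (-0.19 to -0.03) and Foxp2 (-0.43 to -0.05) lay below 0. The ratio of Tbr1 to Foxp2 was 15.1 in control and 21.9 in CUMS. The ratio of Tbr1 to Bcl11b, markers of layers 6 and 5, was 2.33 in control and 2.92 in CUMS.

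Ntsr1, Crym and Syt6 encode proteins that deep-layer neurons use at work in the adult cortex. Ntsr1 (gene 18216, chromosome 2, 180499976 to 180544979) encodes the high affinity receptor of the peptide neurotensin, and its expression marks corticothalamic neurons of layer 6. Its mean was 3.81 RPKM in control (220 fragments) against 6.475 RPKM in CUMS (377 fragments), which is 1.70-fold higher, a log2 ratio of 0.77 (0.52 to 1.01). The lower bound of this interval lies below 1.5-fold. Of the 14257 genes at 0.5 RPKM or more in either group, 233 (1.63%) had a higher ratio, and 9 of these reached 5 RPKM in either group. Of the 9186 genes with a mean of both groups of at least 5 RPKM, 7 had a higher ratio than Ntsr1. Its own mean of 5.14 RPKM passes this limit only through the CUMS value, so that this rank is no separate support. Among genes that reached 5 RPKM in one group or both, 1.60% differed by more than 1.5-fold, and Ntsr1 is among these only through its CUMS value.

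Crym (gene 12971, chromosome 7, 120186380 to 120201989) encodes mu-crystallin, a cytosolic protein that binds thyroid hormone and is abundant in deep layers and striatum. Its log2 ratio was 0.10 (0.02 to 0.18), a small difference on 2458 and 2646 fragments. Syt6 (gene 54524, chromosome 3, 103575245 to 103645567) encodes a synaptotagmin, a membrane protein of vesicle traffic, and marks corticothalamic neurons. It was 16.9 RPKM in control (990 fragments) against 14.2 RPKM in CUMS (834 fragments), a log2 ratio of -0.26 (-0.39 to -0.12), the lowest of the 9 genes. Ntsr1 and Syt6, which share a layer and a cell type as markers, thus lay at the opposite ends of the 9 ratios, and Ntsr1 was 0.225 times Syt6 in control and 0.458 times in CUMS. In GENCODE M21, 505 exonic bases of Syt6 are shared with Atg4a-ps on the opposite strand. The use of strand in counting was not stated, so that the value of Syt6 is uncertain in this respect. The other 8 genes share no exonic base with another gene.

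**Figure D3:**
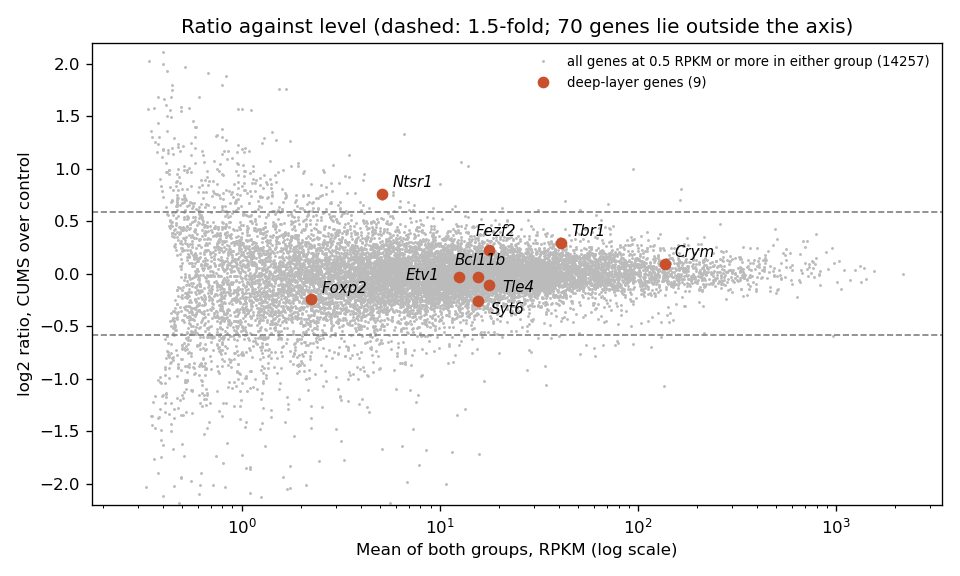
The log2 ratio of CUMS over control (vertical axis) is plotted against the mean of both groups in RPKM (log scale) for 14257 genes (grey) and the 9 deep-layer genes (red), with 1.5-fold limits as dashed lines. Ntsr1 stands above the dashed line at 0.77, Tbr1 and Fezf2 lie in the upper part, the other genes lie within the bulk, and 70 genes lie outside the axis, which ends at 2.2.

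The promoters of Ntsr1, Tbr1 and Fezf2, the 3 genes with the highest ratios, are shown because their levels were higher together in CUMS. Each is the 250 bases before the transcription start in RefSeq on GRCm38.p6, read 5′ to 3′ on the strand of the gene: chr2:180499726-180499975 (plus strand) for Ntsr1, chr2:61804203-61804452 (plus strand) for Tbr1 and chr14:12345866-12346115 (minus strand) for Fezf2. The Tbr1 and Fezf2 windows lie inside the gene spans given above, which start at another transcript. Capitals mark a GC box (GGGCGG on either strand).
Ntsr1: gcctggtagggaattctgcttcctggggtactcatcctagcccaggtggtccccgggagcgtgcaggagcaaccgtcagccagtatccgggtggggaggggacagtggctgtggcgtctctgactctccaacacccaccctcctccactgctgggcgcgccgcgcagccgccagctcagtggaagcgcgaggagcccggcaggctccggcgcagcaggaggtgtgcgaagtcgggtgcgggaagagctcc
Tbr1: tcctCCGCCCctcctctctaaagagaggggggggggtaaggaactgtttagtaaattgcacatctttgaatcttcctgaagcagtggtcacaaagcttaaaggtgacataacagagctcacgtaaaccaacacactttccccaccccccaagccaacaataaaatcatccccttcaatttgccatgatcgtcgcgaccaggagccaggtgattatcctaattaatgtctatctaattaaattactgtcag
Fezf2: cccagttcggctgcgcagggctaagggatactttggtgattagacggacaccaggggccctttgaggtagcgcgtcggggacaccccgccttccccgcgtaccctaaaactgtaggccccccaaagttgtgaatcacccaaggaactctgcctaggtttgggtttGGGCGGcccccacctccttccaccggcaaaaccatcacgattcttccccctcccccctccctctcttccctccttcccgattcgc
The windows differ in base composition, with a GC content of 68.4% in Ntsr1, 45.2% in Tbr1 and 61.2% in Fezf2, against a median of 52.4% over all 32851 promoter windows. RefSeq windows were given for 7 of the 9 genes, all but Foxp2 and Crym. They were 11 windows, with 3 for Syt6 and 2 each for Tle4 and Etv1. The T-box motif TCACACCT, searched on both strands because Tbr1 is a T-box factor, was in 0 of the 11 windows and in 1.12% of all windows. The GC box was in 7 of the 11 windows, which belong to 4 genes (Fezf2, Syt6, Tbr1 and Tle4), and in 32.7% of all windows. The 11 windows are not all separate, since overlapping windows of Syt6 hold the same GC boxes. The share over all windows is not matched for GC content. The ETS core CCGGAA, searched for Etv1, was in 0 of the 11 windows and in 12.03% of all windows. CCAAT was found in Tle4 and in 33.8% of all windows, and TATAAA in Etv1 and in 12.4%. Promoters with a GC box therefore belonged to genes with higher and with lower means in CUMS, and a match describes only these letters.

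Further markers of the deep layers differed by class. Corticothalamic markers of layer 6 were all higher (5 of 5), their median log2 ratio was 0.26, and the interval lay above 0 in 3 of them, against 12.5% of all genes. Rprm, a p53 target used as a layer 6 marker, was 42.8 RPKM in control against 53.8 RPKM in CUMS, a log2 ratio of 0.33 (0.21 to 0.46). Hs3st4, an enzyme that modifies heparan sulfate, was 27.1 and 28.4 RPKM, a log2 ratio of 0.06 (-0.05 to 0.18). Nxph3, a secreted ligand of neurexins, was 18.9 and 22.7 RPKM, a log2 ratio of 0.26 (0.10 to 0.42). Subcerebral markers of layer 5 were lower in 5 of 8, their median was -0.11, and the interval lay below 0 in 3, against 16.8% of all genes, and above 0 in 0. Pcp4, a calmodulin regulator and the most abundant of them, was 220.2 RPKM in control against 228.6 RPKM in CUMS, with a log2 ratio of 0.05 (-0.03 to 0.14). S100a10 and Ldb2 had log2 ratios of -0.19 (-0.43 to 0.06) and 0.07 (-0.06 to 0.21). The median of corticothalamic markers exceeded that of subcerebral markers by 0.37, a difference for which no test exists with 1 mean per group. Among the 9 genes, the layer 6 genes Tbr1 and Ntsr1 were higher and Syt6 was lower, with intervals off 0, and those of Tle4 and Foxp2 included 0. Of the layer 5 genes, Fezf2 was higher, and the intervals of Bcl11b and Etv1 included 0.

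Near-projecting neurons, a sparse class of layer 5 with short axons, were represented by 3 genes (median log2 ratio -0.10), of which Lypd1 was 62.9 RPKM in control against 57.6 RPKM in CUMS. Markers of layer 6b, the thin sheet above the white matter, had a median of -0.04 over 5 genes. Of these, Ctgf, Cplx3 and Nr4a2 had log2 ratios of 0.08, 0.08 and -0.33. None of these 21 further deep-layer genes differed by more than 1.5-fold. Their median was 0.05, with 11 higher and 10 lower, close to an even division as in the 9 genes.

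The regulators that share the developmental network with Fezf2, Bcl11b and Tbr1 went one way. All 10 listed genes were higher in CUMS, with a median log2 ratio of 0.31 and a range from 0.08 to 0.55, and the interval lay above 0 in 8 of them, against 12.5% of all genes. Lmo4, a LIM domain regulator, was the highest of this list, at 144.7 and 175.3 RPKM, a log2 ratio of 0.28 (0.21 to 0.34). Ski, a transcriptional corepressor, had a log2 ratio of 0.09 (0.03 to 0.16), and Bcl11a, the family member of Bcl11b, had 0.10 (-0.01 to 0.21). None of the 10 passed 1.5-fold.

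The closest family members of the 9 genes were higher in 5 and lower in 11 of the 16 genes at the minimum, with a median log2 ratio of -0.17. Ntsr2, the low affinity neurotensin receptor, best known from astrocytes, was 75.2 RPKM in control against 63.1 RPKM in CUMS, a log2 ratio of -0.25 (-0.35 to -0.15), where Ntsr1 was higher. Foxp1 was higher, with a log2 ratio of 0.20 (0.08 to 0.32), where Foxp2 was lower with an interval that included 0. Tle1 had a log2 ratio of -0.28 (-0.45 to -0.12), and those of Tle2 and Tle3 were 0.02 and -0.02. The T-box genes Tbx21 and Eomes, which the cortex hardly expresses and mitral cells of the olfactory bulb do, had log2 ratios of -1.09 and -1.61 on 27 and 69 control fragments, against 0.30 for Tbr1. Of the other family members, Etv5 had a log2 ratio of -0.10 (-0.18 to -0.03), Etv4 of -0.40 (-0.77 to -0.05), Syt3 of -0.07 (-0.20 to 0.06), Syt9 of 0.17 (-0.08 to 0.42) and Foxp4 of 0.05 (-0.08 to 0.18). Fezf1, Tle6, Foxp3 and Syt10 were at or below 1.34 RPKM in both groups, and Syt10, past 1.5-fold at 1.13 and 0.64 RPKM, had a log2 ratio of -0.82 with an interval that included 0 (-1.72 to 0.09).

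Excitatory neurons as a whole and those of the upper layers were set beside the deep-layer genes. Pan-excitatory genes were higher in 7 of 7, with a median log2 ratio of 0.33, and Camk2a, Nrgn and Slc17a7 had log2 ratios of 0.21, 0.38 and 0.32. Emx1, a homeobox factor of the cortical lineage, was the gene of this list past 1.5-fold, at 9.28 RPKM in control against 14.5 RPKM in CUMS. Upper-layer genes were higher in 9 of 12, with a median of 0.19. Of these, Lamp5, Calb1 and Lhx2 had log2 ratios of 0.33, 0.36 and 0.11, and Mdga1 was past 1.5-fold and lower, at 8.24 RPKM in control against 3.85 RPKM in CUMS (-1.10). The median of the 9 deep-layer genes lay 0.22 below that of the upper-layer list and 0.35 below that of the pan-excitatory list. Without the 4 genes that striatal neurons also express, the median of the remaining 5 was 0.23, and the difference from the upper-layer list was 0.04 with the opposite sign. This median is the value of Fezf2 alone, with Ntsr1 and Tbr1 above it and Tle4 and Syt6 lower in CUMS. Of the 4 genes left out, 0 had an interval below 0.

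Dividing by Slc17a7 lowers every log2 ratio by the same 0.32, after which 8 of the 9 genes were lower in CUMS, as were 92.2% of all genes at 0.5 RPKM or more. Per 1000 RPKM of Slc17a7, Tbr1 was 57.9 in control and 57.1 in CUMS, and Fezf2 was 25.8 and 24.3, close together. Bcl11b was 24.8 and 19.5, Syt6 was 26.6 and 17.9, and Foxp2 was 3.83 and 2.60. Ntsr1 was the exception, at 6.00 in control and 8.18 in CUMS. The log2 ratios of Tbr1 (0.30) and Fezf2 (0.23) lay within the range of the pan-excitatory list, 0.21 to 0.65, and that of Ntsr1 (0.77) lay above it.

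**Figure D4:**
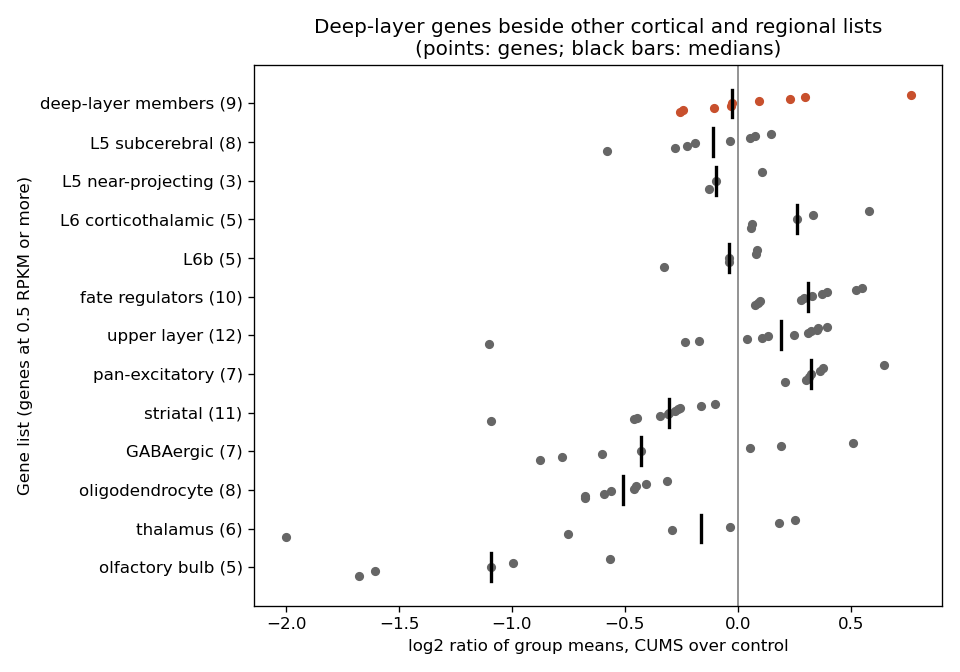
Each point is the log2 ratio of CUMS over control (horizontal axis) of 1 gene at 0.5 RPKM or more, in rows by gene list with the number of genes in brackets and the median as a black bar. The 9 deep-layer genes lie on both sides of 0, pan-excitatory genes and fate regulators lie above 0, and striatal, oligodendrocyte and olfactory bulb genes lie below 0.

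Markers of other brain regions, and of oligodendrocytes and GABAergic neurons, differed between the groups as well. Striatal genes were lower in 11 of 11, with a median log2 ratio of -0.30, and their summed level was 569.5 RPKM in control against 467.7 RPKM in CUMS. The most abundant of them, Ppp1r1b and Penk, were 191.1 and 166.0 RPKM in control and 170.4 and 120.8 RPKM in CUMS, and Six3 was the striatal gene past 1.5-fold (4.17 and 1.96 RPKM). Bcl11b, Foxp2, Crym and Etv1, which striatal neurons share, had a median of -0.03 (1 of 4 higher). The other 5 genes had a median of 0.23, with 3 of 5 higher. Olfactory bulb genes, relevant because Tbr1 is also a gene of mitral cells, were lower in 5 of 5 genes at the minimum, of which Eomes, Tbx21, Doc2g and Sp8 were past 1.5-fold, with a summed level of 26.1 RPKM over all 7 genes in control and 11.8 RPKM in CUMS. Lhx1 and Uncx were near 0 in both groups, on 3 and 1 fragments in control and 0 in CUMS. Thalamus genes, relevant for Foxp2 and Tle4, were lower in 4 of 6, with summed levels of 43.3 and 33.8 RPKM, and Prkcd was past 1.5-fold (17.2 and 4.30 RPKM). The other 5 thalamus genes summed to 26.1 RPKM in control and 29.5 RPKM in CUMS. Of these, Ramp3 had a log2 ratio of 0.25 (0.04 to 0.46), Lef1 of 0.18 (-0.22 to 0.58), and Gbx2, past 1.5-fold on 17 and 10 fragments, of -0.75 (-2.07 to 0.43). Slc17a6 and Tcf7l2 had log2 ratios of -0.04 (-0.36 to 0.29) and -0.29 (-0.76 to 0.15). Myelin genes of oligodendrocytes were lower in 8 of 8, with a median of -0.51 and summed levels of 1944 RPKM in control against 1323 RPKM in CUMS. Mbp, Mobp and Cldn11 were past 1.5-fold, with log2 ratios of -0.59, -0.68 and -0.68. GABAergic neuron genes were lower in 4 of 7, with summed levels of 641.7 and 555.1 RPKM, and Gad1, Gad2 and Slc32a1 were past 1.5-fold with log2 ratios of -0.60, -0.88 and -0.78. The interneuron class markers Vip, Pvalb and Sst were higher, with log2 ratios of 0.51 (0.31 to 0.71), 0.19 (-0.03 to 0.42) and 0.05 (-0.02 to 0.13). The intervals of Pvalb and Sst included 0. Lhx6, the other lower gene of this list, had a log2 ratio of -0.43 (-0.63 to -0.23). None of the striatal, thalamus, oligodendrocyte or GABAergic markers was listed at 0.01 RPKM. The part of these tissues and cells in the deep-layer values was not tested.

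Genes that work with the deep-layer genes were looked at in 3 small lists chosen after the values of the 9 genes had been seen. In the neurotensin list, which holds Nts, Ntsr2 and Sort1, 1 gene was higher and 2 were lower. The ligand gene Nts and the receptor gene Ntsr2 were lower, where Ntsr1 was higher. Nts, the gene of neurotensin, was 9.83 RPKM in control (180 fragments) against 3.16 RPKM in CUMS (58 fragments), a log2 ratio of -1.64 (-2.10 to -1.21), and Sort1, which encodes the sorting receptor sortilin, had a log2 ratio of 0.06 (0.02 to 0.10). Nts is abundant in subcortical neurons. Of the thyroid hormone genes, beside Crym, 3 of 6 were higher, with a median of 0.03. Thra, the main receptor of the brain, was 293.4 RPKM in control against 324.8 RPKM in CUMS, a log2 ratio of 0.15 (0.11 to 0.19). Slco1c1, a thyroid hormone transporter, had a log2 ratio of 0.06 (-0.09 to 0.20). Of 5 genes known as targets or partners of Tbr1, 2 were higher and 3 were lower. Reln, Auts2, Grin2b, Cask and Nfia had log2 ratios from -0.22 to 0.11, and the interval of each included 0, where that of Tbr1 did not. The lowest ratio was that of Grin2b, which lay near the minimum at 0.56 RPKM in control and 0.48 RPKM in CUMS. On 62 and 54 fragments its interval was wide (-0.76 to 0.34), so that its value says little.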

How the data were processed

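Messenger RNA of mouse mPFC was sequenced in 4 libraries, grouped by the sample titles. The authors trimmed paired reads with SolexaQA, aligned them to mm10 with TopHat (1.0.12) and Bowtie (0.11.3) and counted uniquely aligned reads per gene. Which annotation was used, and whether strand was, is not given in the sources used here. The deposited values are RPKM, which the authors averaged over the 2 libraries of each group, with 0.01 in place of 0. The log2 ratio and the NOISeq probability, a score of the authors' own comparison, were deposited as well and were not used. The gene length in bases, as deposited, was used for fragment estimates.

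Here the log2 ratio of the group means was computed with no pseudocount for 17778 genes. With 1 mean per group no test exists, and none was run; the planned limma fit needs a value per library. Fragments were estimated from the step that 1 fragment adds to the product of RPKM and gene length, fitted between 20 and 200 on genes under 1000 bases with products under 350 (406 control and 392 CUMS values). The steps were 67.7 and 67.2, and 86.5% and 86.2% of values lay within 0.15 of a whole step, against 35.0% and 32.9% with shuffled lengths. This assumes equal depth within a group, gives fewer fragments than the read numbers of the study, and PCR duplicates could not be removed. Intervals of ratios are Clopper-Pearson and those of levels are Poisson, both at 95%. The procedure was tested on simulated data. Lists were described by counts and medians over genes that reached 0.5 RPKM in a group.

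The 9 genes and the 13 lists were chosen with earlier results of these data known, and 3 lists were added later. Named were the 9 genes, their family members, at most the 3 most abundant genes of a list, and genes past 1.5-fold. Genes of the 3 added lists were named after their values were seen. Lef1, Tcf7l2, Vip, Pvalb and Lhx6 were named outside these rules, with their values known. Single values of some list genes are not reported here. Coordinates and promoters are from RefSeq (GRCm38.p6; all 9 genes matched by ID), and exons from GENCODE M21. Python 3.11.15, numpy 2.4.6, pandas 2.3.3, scipy 1.17.1 and matplotlib 3.10.9 were used.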

Additional observations from a re-analysis of the deposited data

How the results depend on the processing

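No paired analysis was possible because the values analysed are group means. No library could be left out either, and the planned limma fit was not run. The number of deep-layer genes past the fold threshold, 1 at 1.5-fold, was 0 at 2-fold and 0 without Ntsr1. Without the 4 genes that striatal neurons also express, the median log2 ratio of -0.03 was 0.23, the difference from the upper-layer list of -0.22 was 0.039, and the difference from the pan-excitatory list of -0.35 was -0.094. The cause was not tested, apart from the change of genes itself. The settings without Ntsr1, and those against the pan-excitatory list, were chosen after seeing the data. Rescaling by the median of all genes (a shift of 0.02 on the log2 scale) or to an equal total (a shift of -0.01), pseudocounts of 0.1 and 1 RPKM, and a minimum of 0 or 5 RPKM left 4 genes higher and changed the sign of no gene. With the minimum of 5 RPKM the median was 0.03 over 8 genes, of which Ntsr1 passed only through its CUMS value, and -0.03 over the other 7. Depth limits the intervals. At 2 times the estimated depth the interval lay off 0 in 7 of the 9 genes, against 5, with Tle4 and Foxp2 added as lower. At a depth lower by the same factor it lay off 0 in 3, without Fezf2 and Crym.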
